A study of Homo sapiens with 6 samples.

Results

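Keratins are the intermediate filament proteins of epithelial cells, and their 55 human protein-coding genes all had a row among the 20263 rows of the count table. Members were taken by name, as every protein-coding gene called KRT with a number and at most 1 further letter, so the keratin-associated proteins of hair were not included. HCCLM3 cells, a human hepatocellular carcinoma line with metastatic behaviour, were given CC-885 (3 libraries) or the solvent DMSO (3 libraries) for 24 h. CC-885 binds cereblon, which picks the substrates of a CUL4 ubiquitin ligase, and leads the ligase to proteins such as the translation termination factor GSPT1. The study asked how the compound acts on the Golgi protein GOLM1 and on growth and spread of liver cancer cells, and no dose stands in the labels. Nothing in the labels says that replicates were separate cultures, so the spread behind each p-value may be technical only.

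A keratin filament is built from pairs of an acidic type I and a basic type II chain, so each cell needs both types. KRT8 and KRT18 are the pair of simple epithelia and of hepatocytes, KRT7 and KRT19 mark bile duct cells, and KRT5, KRT14, KRT1 and KRT10 belong to the layers of the epidermis. KRT6, KRT16 and KRT17 are induced in wounded or stressed epidermis, and the hair keratins make the hair shaft. In GENCODE 29 the type II genes lie on chromosome 12 together with the type I gene KRT18, and the other type I genes on chromosome 17.

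Total counts ran from 30432509 to 39809131 per library, and a count of 0 allows 0.0754 to 0.0986 CPM (the count scaled to library size), taking 3 counts of the total as the limit. Such limits cover counting error only. Libraries of the same group correlated by at least 0.977 in log2 CPM, and those of different groups by at most 0.946. Markers of the labelled tissue were nearly absent: of 10 hepatocyte genes 4 (ALB, APOB, TTR and AFP) had no count in any library. The summed level of these 10 genes was 0.232 to 0.572 CPM under CC-885 and 1.23 to 1.55 CPM under DMSO. The 1 gene among them that was tested, the hepatocyte transcription factor HNF4A, had 5, 16 and 2 counts under CC-885 and 53, 49 and 34 under DMSO (log2 fold change -2.50, edgeR quasi-likelihood test, adjusted p = 0.00156). It reached the filter through DMSO alone, so its call follows in part from the filter. Its log2 fold change was -3.47 without CC-885 replicate 2.

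The makeup of the keratin transcripts differed between the groups. KRT17, KRT7, KRT80 and the hair keratin KRT34 rose, KRT8 fell slightly and its partner KRT18 was not called. Under DMSO the most abundant keratin transcripts were KRT8 and KRT18, and under CC-885 it was KRT17. Of the 55 genes 16 passed the filter on low counts, 21 had some counts below it and 18 had none. By the quasi-likelihood test of edgeR with Benjamini-Hochberg adjustment over 13444 genes (adjusted p below 0.05), 7 of the 16 were higher and 2 lower. Over all tested genes 25.8% were called higher and 26.8% lower, in all 52.6%. KRT33B, among the 7, reached the filter (0.287 CPM in 3 libraries) through CC-885 alone and KRT12, among the 2, through DMSO alone, so their calls follow in part from the filter, and 6 higher and 1 lower are left without them. The groups did not overlap for 10 of the 16 keratins, against 61.1% of all tested genes. A change of at least 2-fold was called for 7 keratins, KRT33B and KRT12 included, and for 18.6% of all tested genes. The median log2 fold change was 0.33 for the 16 keratins and -0.04 for all tested genes. Counts are of mRNA from bulk cultures, where fewer cells with a transcript and less transcript per cell cannot be told apart.

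**Figure D1:**
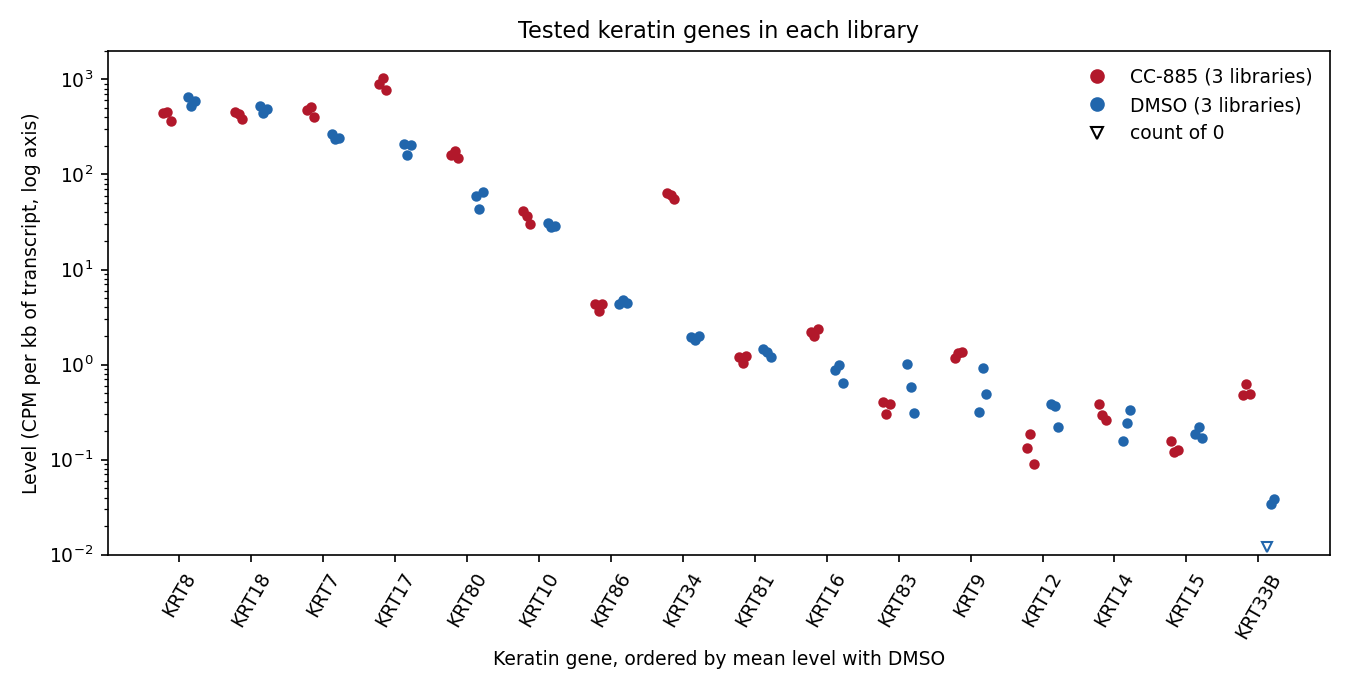
Level of each of the 16 tested keratins in each library, in CPM per kb of transcript on a log axis, with CC-885 in red left of DMSO in blue. KRT34 lies between 54.8 and 64.5 under CC-885 and between 1.82 and 1.98 under DMSO, and the open triangle marks the DMSO library with no KRT33B count.

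Among the keratins of simple epithelia KRT7 was higher and KRT8 lower. KRT8 (ENSG00000170421) stood at 947, 954 and 768 CPM under CC-885 and at 1388, 1115 and 1252 CPM under DMSO. The groups did not overlap, and the log2 fold change of -0.49 (SE 0.16) passed the test narrowly (edgeR, adjusted p = 0.0236). KRT8 was no longer called once a CC-885 library (adjusted p = 0.0595 for replicate 1, 0.0595 for replicate 2 and 0.117 for replicate 3) or DMSO replicate 1 (0.104) was left out. KRT18 (ENSG00000111057), the type I partner of KRT8, gave 707, 671 and 593 CPM under CC-885 and 822, 690 and 762 CPM under DMSO. These ranges overlapped and KRT18 was not called (log2 fold change -0.21, SE 0.15, edgeR, adjusted p = 0.263).

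Per kilobase of transcript the ratio of KRT8 to KRT18 was 0.984, 1.04 and 0.951 under CC-885, against 1.24, 1.19 and 1.21 under DMSO. The ratio was thus lower in the 3 CC-885 libraries, and this difference was not tested. In GENCODE 29 both genes lie side by side on opposite strands with 302 exonic bases in common, and no source says whether counting used strand. Both also have many processed pseudogenes: 32.7% of the 50-base windows of the KRT8 transcript and 31.8% of those of KRT18 occur in a transcript of another gene. By shared windows their counts are less certain than those of KRT7 (0.997%), though KRT7 also overlaps exons on the opposite strand.

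KRT7 (ENSG00000135480), the type II keratin of ducts and glands, rose 1.87-fold. It stood at 833, 890 and 706 CPM under CC-885 and at 462, 414 and 422 CPM under DMSO (log2 fold change 0.90, SE 0.15, edgeR, adjusted p = 0.000438). KRT7-AS, an antisense RNA, lies opposite KRT7 with an exon overlap of 282 bases. KRT19, the type I keratin of bile ducts, had no count in the CC-885 libraries and 2, 0 and 0 counts under DMSO. KRT20, a keratin of intestinal epithelium, had 3, 9 and 5 counts under CC-885 and 9, 16 and 13 under DMSO, too few for the test.

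KRT17 (ENSG00000128422) showed the largest increase among the abundant keratins. This type I keratin of hair follicles, glands and injured skin reached 1479.9, 1711 and 1279 CPM under CC-885, against 343, 266 and 335 CPM under DMSO. The increase was 4.74-fold (log2 fold change 2.24, SE 0.18, edgeR, adjusted p = 3.34e-06). Per kilobase it stood below KRT8, KRT18 and KRT7 under DMSO, and above every other keratin under CC-885. Transcripts of other genes, led by KRT17 pseudogenes, hold 16.0% of its 50-base windows.

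KRT16 (ENSG00000186832), which is induced with KRT17 in injured epidermis, was scarce but moved the same way. It had 3.6, 3.25 and 3.89 CPM under CC-885 and 1.44, 1.63 and 1.04 CPM under DMSO (log2 fold change 1.38, SE 0.24, edgeR, adjusted p = 0.000565). KRT16 counts were 0.19 to 0.304% of KRT17 counts under CC-885 and 0.312 to 0.615% under DMSO. Of its windows 1.0% occur in KRT17 and 11.3% in KRT14. KRT6A and KRT6C, type II keratins of the same injured epidermis, had no count in any library, and KRT6B had 2 counts in CC-885 replicate 3 only.

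KRT80 (ENSG00000167767) is a type II keratin found in many epithelia. It stood at 624, 676 and 570.0 CPM under CC-885 and at 230.2, 169 and 255 CPM under DMSO, so the groups were well apart. The increase was 2.86-fold (log2 fold change 1.52, SE 0.17, edgeR, adjusted p = 3.89e-05).

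Keratins of the epidermis and of the cornea were low in these cells, apart from KRT10, and moved in both directions. KRT10 (ENSG00000186395), the type I keratin of the upper epidermis, had 87.2, 77.6 and 63.9 CPM under CC-885 and 65.5, 59.4 and 60.6 CPM under DMSO. The ranges overlapped and it was not called (log2 fold change 0.30, SE 0.14, edgeR, adjusted p = 0.0863), but it passed without CC-885 replicate 3 (log2 fold change 0.42, adjusted p = 0.0308). TMEM99 overlaps KRT10 on the opposite strand. KRT1, the type II partner of KRT10 in skin, had no count.

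KRT9 (ENSG00000171403), the keratin of palms and soles, had 2.66, 3.02 and 3.08 CPM under CC-885 and 0.731, 2.10 and 1.14 CPM under DMSO. It was called higher (log2 fold change 1.14, SE 0.34, edgeR, adjusted p = 0.0142), a call that just missed the threshold without CC-885 replicate 3 (adjusted p = 0.0501). KRT12 (ENSG00000187242), the keratin of the corneal epithelium, was called lower, at 0.300, 0.416 and 0.203 CPM under CC-885 and 0.861, 0.817 and 0.491 CPM under DMSO. Only the DMSO group reached the filter in all 3 libraries. The values stand for 9, 16 and 7 counts under CC-885 and 33, 30 and 16 counts under DMSO (log2 fold change -1.23, SE 0.42, edgeR, adjusted p = 0.0276). KRT12 missed the threshold with DESeq2 (adjusted p = 0.118) and when any of 4 libraries was dropped from the edgeR fit (0.0702 for CC-885 replicate 1, 0.104 for CC-885 replicate 3, 0.111 for DMSO replicate 1 and 0.084 for DMSO replicate 2). An antisense RNA lies opposite KRT12.

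KRT14 and KRT15 mark the basal layer of stratified epithelia. KRT14 had 0.521 ± 0.101 CPM under CC-885 and 0.407 ± 0.146 CPM under DMSO (SD, n = 3 each), and KRT15 had 0.708 ± 0.11 CPM under CC-885 and 1.0 ± 0.13 CPM under DMSO. Other genes hold 23.8% of the KRT14 windows, and its counts are uncertain. KRT14 reached the filter in all 3 libraries only under CC-885. Neither KRT14 nor KRT15 was called, with log2 fold changes of 0.36 for KRT14 (edgeR, adjusted p = 0.486) and -0.50 for KRT15 (edgeR, adjusted p = 0.188). KRT5, the type II partner of KRT14, had no count under CC-885 and 9, 4 and 0 counts under DMSO, which was below the filter.

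**Figure D2:**
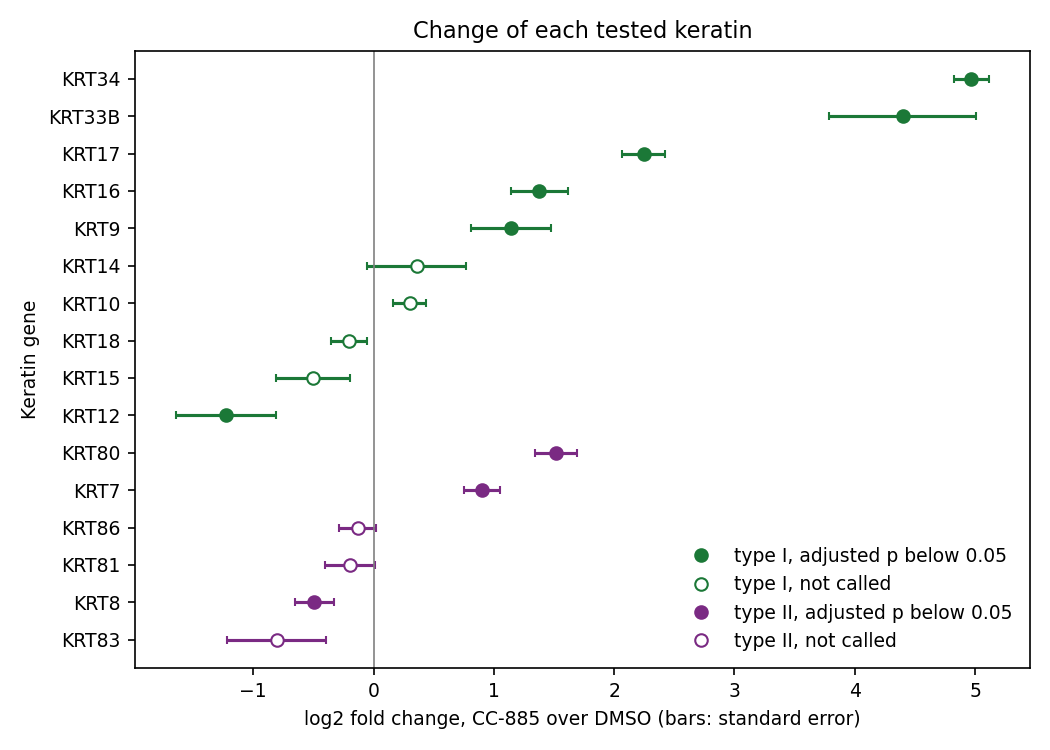
Log2 fold change of CC-885 over DMSO for each tested keratin with its standard error, type I in green and type II in purple, filled where the adjusted p was below 0.05. KRT34 stands at 4.97 and KRT33B at 4.4, and KRT12 at -1.23 is the lowest.

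Among hair keratins the type I members KRT34 and KRT33B rose and the type II members did not pass the test. KRT34 (ENSG00000131737), a keratin of the hair cortex, had 3389, 4089 and 3300 counts under CC-885 and 130, 117 and 113 counts under DMSO. This was 113, 106 and 95.9 CPM under CC-885, against 3.39, 3.19 and 3.47 CPM under DMSO, so the libraries within each group lay close together. The increase was 31.3-fold (log2 fold change 4.97, SE 0.15, edgeR, adjusted p = 4.64e-09) and ranked 15 among the 13444 tested genes. KRT33B (ENSG00000131738), its neighbour among the keratin genes on chromosome 17, had 23, 39 and 27 counts under CC-885 and 0, 2 and 2 under DMSO.

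KRT33B passed the filter through the CC-885 libraries alone, so its call follows in part from the filter. Its log2 fold change of 4.4 (SE 0.61, edgeR, adjusted p = 0.00014) depends on the prior count. The ratio of summed counts, 89 under CC-885 to 4 under DMSO and scaled to library size, was 23.3 (exact 95% interval 8.77 to 87.3, counting error only). If each fragment was counted as a pair of reads, the interval widens to 6.0 to 196. Of the 50-base windows of KRT33B 18.0% occur in KRT33A, 8.28% in KRT31 and 7.25% in KRT34. KRT33B counts were 0.679, 0.954 and 0.818% of KRT34 counts under CC-885 and 0, 1.71 and 1.77% under DMSO. Whether reads of KRT34 were counted for KRT33B was not tested. The flanking hair keratins stayed near 0. KRT33A had 3, 0 and 0 counts under CC-885 and none under DMSO, and KRT31 had 0, 2 and 0 counts under CC-885 and none under DMSO.

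The 250 bases before the start of KRT34 and of KRT33B are shown because these neighbours had the largest fitted increases among keratins, and those of KRT10 because it lies on the same chromosome and was not called. Sequences are from RefSeq on build GRCh38.p14, minus strand, at chr17:41382307-41382556 for KRT34, chr17:41369814-41370063 for KRT33B and chr17:40822615-40822864 for KRT10. Capitals mark the letters TATAAA, known as the TATA box, and TGATGNAA, the element bound by dimers of ATF4 with C/EBP factors.
KRT34: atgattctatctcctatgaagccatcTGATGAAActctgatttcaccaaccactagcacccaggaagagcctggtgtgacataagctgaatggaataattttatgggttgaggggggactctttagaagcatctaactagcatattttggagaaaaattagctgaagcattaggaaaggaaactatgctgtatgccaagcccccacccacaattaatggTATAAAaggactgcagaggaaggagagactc
KRT33B: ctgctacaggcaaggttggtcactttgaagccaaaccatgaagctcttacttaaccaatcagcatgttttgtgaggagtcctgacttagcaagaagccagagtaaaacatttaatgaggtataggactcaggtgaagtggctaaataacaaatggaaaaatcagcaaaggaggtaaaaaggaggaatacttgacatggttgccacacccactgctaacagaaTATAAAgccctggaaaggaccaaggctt
KRT10: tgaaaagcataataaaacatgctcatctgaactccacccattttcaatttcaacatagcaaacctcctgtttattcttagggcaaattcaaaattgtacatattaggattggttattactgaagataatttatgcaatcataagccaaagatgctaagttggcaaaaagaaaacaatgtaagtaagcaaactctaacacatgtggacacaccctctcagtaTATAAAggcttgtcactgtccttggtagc

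All 3 hold a TATA box, which begins at base -31 in KRT34, -28 in KRT33B and -29 in KRT10, counted back from the start. Searched on both strands, TATAAA was found in 21 of the 38 keratin promoters in the RefSeq table and in 10.7% of all 35116 promoters. The table matched 6 of the 16 tested keratins, namely KRT8, KRT9, KRT10, KRT12, KRT33B and KRT34. TGATGNAA stood from base -224 to -217 of KRT34, and was found in 3 of the 38 keratin promoters and in 3.14% of all promoters. The AP-1 letters TGANTCA were in 0 of the 38 and in 6.57% of all. Other letters searched were those of CRE (0 of the 38, 1.65% of all) and TEAD sites (5 of the 38, 11.9% of all). GC boxes (4 of the 38, 42.6% of all) and EGR sites (0 of the 38, 0.720% of all) were searched too. These matches describe letters and not bound sites.

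KRT86, KRT81 and KRT83 are type II hair keratins and the possible partners of KRT34. KRT86 had 9.69, 8.08 and 9.59 CPM under CC-885 and 9.53, 10.7 and 9.79 CPM under DMSO (log2 fold change -0.13, SE 0.15, edgeR, adjusted p = 0.480). KRT81 had 2.33, 2.03 and 2.38 CPM under CC-885 and 2.79, 2.61 and 2.30 CPM under DMSO (log2 fold change -0.20, SE 0.21, edgeR, adjusted p = 0.457). KRT83 had 0.766, 0.572 and 0.726 CPM under CC-885 and 1.91, 1.09 and 0.583 CPM under DMSO. Its ranges overlapped and it was not called (log2 fold change -0.81, SE 0.41, edgeR, adjusted p = 0.121), but it passed without DMSO replicate 3 (log2 fold change -1.13, adjusted p = 0.0174). KRT81 and KRT86 share much of their sequence: 38.4% of the KRT81 windows occur in KRT86 and 33.3% of the KRT86 windows in KRT81. Over all other genes the shared windows were 44.6% for KRT81 and 40.5% for KRT86. The split of counts between these 2 and their other relatives is therefore uncertain. Of the 17 hair keratins 5 were tested, 8 were counted below the filter and 4 had no count.

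Of the 21 keratins counted below the filter, 15 had at most 3 counts in any library: KRT2, KRT4, KRT6B, KRT13, KRT19, KRT27, KRT28, KRT31, KRT33A, KRT37, KRT71, KRT73, KRT78, KRT84 and KRT85. The other 6 were KRT5, KRT20, KRT23, KRT38, KRT39 and KRT40. KRT39, a hair keratin, had no count under CC-885 and 6, 4 and 2 counts under DMSO. KRT23 had 0, 0 and 4 counts under CC-885 and 2, 6 and 4 under DMSO, KRT40 had 2, 0 and 2 under CC-885 and 2, 1 and 5 under DMSO, and KRT38 had 0, 4 and 0 under CC-885 and 2, 0 and 3 under DMSO. The 18 with no count were KRT1, KRT3, KRT6A, KRT6C, KRT24, KRT25, KRT26, KRT32, KRT35, KRT36, KRT72, KRT74, KRT75, KRT76, KRT77, KRT79, KRT82 and the short type I relative KRT222.

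To compare keratins with each other, CPM were divided by the length of the principal transcript in kilobases. Under CC-885 KRT17 led at 775 to 1036 CPM per kb. KRT7 (402 to 508), KRT18 (380 to 453) and KRT8 (361 to 449) came next with overlapping ranges, followed by KRT80 (148 to 175), KRT34 (54.8 to 64.5) and KRT10 (30.1 to 41.0). Under DMSO KRT8 (524 to 653) and KRT18 (442 to 526) led and overlapped, followed by KRT7 (236 to 263), KRT17 (161 to 208) and KRT80 (43.8 to 66.0). KRT10 (28.0 to 30.8), KRT86 (4.30 to 4.82) and KRT34 (1.82 to 1.98) came after them. The order depends on the length used. With the length of all annotated exons it was KRT17, KRT18, KRT7, KRT80 and KRT8 under CC-885, and KRT18, KRT8, KRT7, KRT17 and KRT80 under DMSO.

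KRT17 made up 36.4 ± 1.65% of the summed keratin level per kb under CC-885 and 11.8 ± 0.675% under DMSO (SD, n = 3 each). KRT8 made up 16.9 ± 0.485% under CC-885 and 36.6 ± 0.588% under DMSO, and KRT18 17.1 ± 1.03% under CC-885 and 30.2 ± 0.285% under DMSO. KRT7 took 18.7 ± 0.0816% under CC-885 and 15.4 ± 0.817% under DMSO. KRT34 took 2.44 ± 0.166% under CC-885 and 0.119 ± 0.00786% under DMSO. For each of these 5 genes, and for KRT80 and KRT10, the shares in the 2 groups did not overlap. The shares of a library add up to a whole, so a rise of KRT17 lowers those of other keratins. KRT10 took 1.45 ± 0.139% under CC-885 and 1.82 ± 0.100% under DMSO, though its log2 fold change was 0.30 and not called. KRT18 was not called either, so a lower share does not show a lower level.

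**Figure D3:**
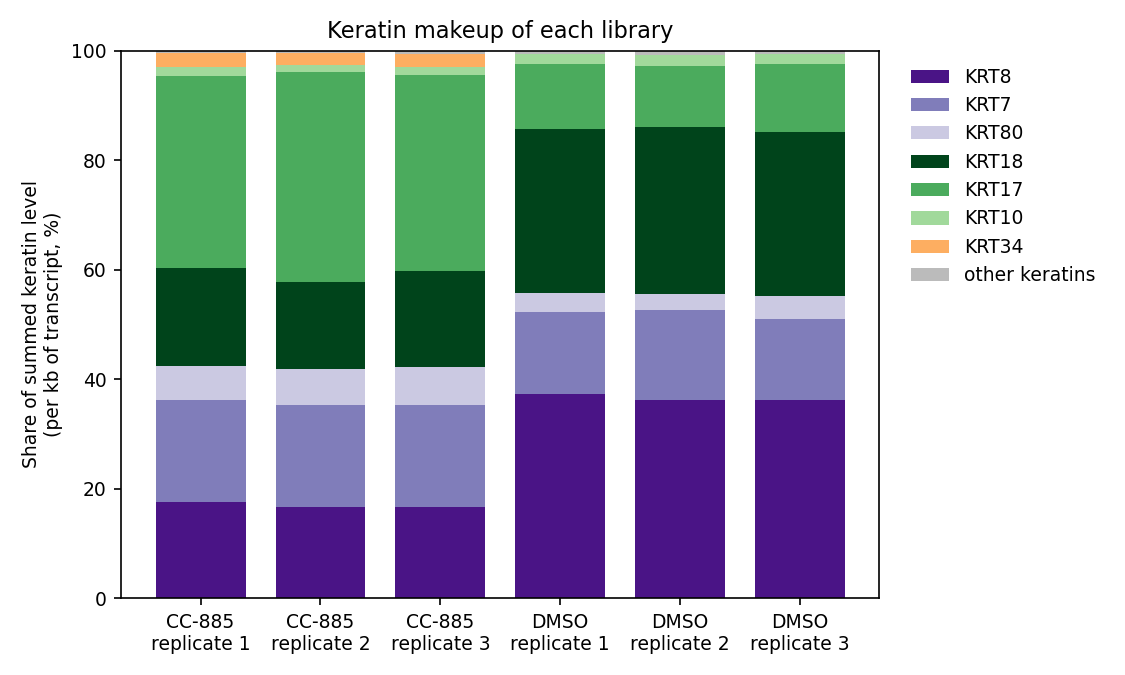
Share of each keratin in the summed keratin level per kb of transcript, in percent, for each library, with purple for type II, green for type I and orange for the hair keratin KRT34. The 3 libraries of a group look alike, KRT17 holding 35.2 to 38.3% under CC-885 and 11.1 to 12.5% under DMSO.

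Summed type I keratins reached 1459.5, 1568 and 1244 CPM per kb under CC-885, against 769, 636 and 723 CPM per kb under DMSO. Summed type II keratins gave 1088, 1137 and 917 CPM per kb under CC-885 and 983, 811 and 901 CPM per kb under DMSO, which overlapped. Per kb of all annotated exons the type II sums were 490.5, 516 and 421 CPM under CC-885 and 374, 309 and 349 CPM under DMSO, which did not overlap. The ratio of type I to type II was 1.34, 1.38 and 1.36 under CC-885 and 0.782, 0.784 and 0.802 under DMSO. From CPM not divided by length the ratio averaged 1.0 under CC-885 and 0.597 under DMSO, and from all annotated exons 1.64 under CC-885 and 1.07 under DMSO, so the level of the ratio depends on the lengths used. All keratins together took 0.475, 0.493 and 0.403% of the counts under CC-885 and 0.340, 0.289 and 0.307% under DMSO. No test was made on these sums, because the members were chosen with results known.

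**Figure D4:**
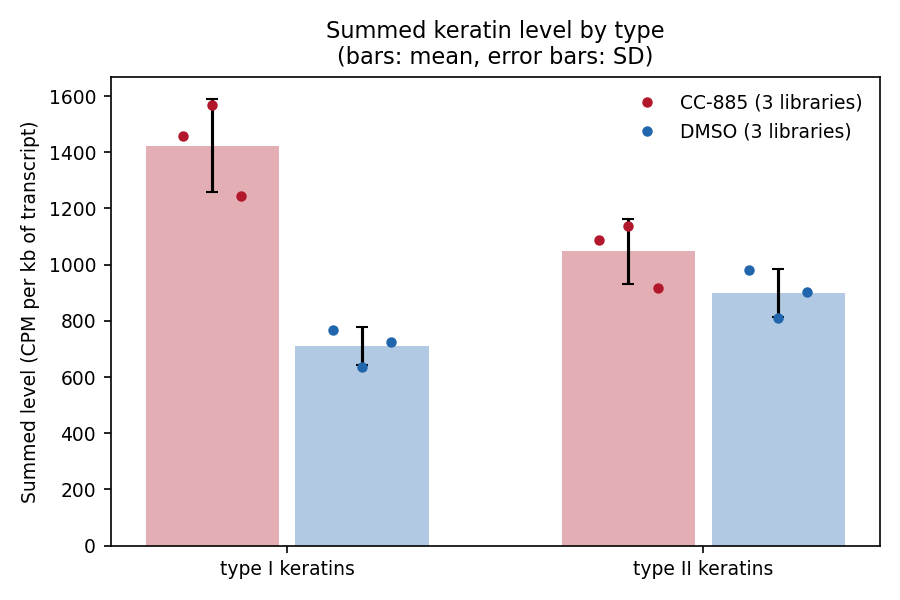
Summed level of type I and of type II keratins in CPM per kb of transcript, with bars for the mean, error bars for the SD and points for the 3 libraries of each group, CC-885 left of DMSO. Type I sums are 1244 to 1568 under CC-885 and 636 to 769 under DMSO, while the type II sums overlap with these lengths but not with those of all annotated exons.

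Transcription factors of epithelia were called higher for 6 of 9 tested and lower for 0 of 9, against 25.8% and 26.8% of all tested genes. The list had 16 genes, and its median log2 fold change was 0.80. With 1 library left out at a time, 4 to 7 of the list were higher and 0 lower. KLF5, a factor of proliferating epithelium, had 117 ± 10.7 CPM under CC-885 and 33.4 ± 8.11 CPM under DMSO (log2 fold change 1.81, edgeR, adjusted p = 1.15e-05). TFAP2C, an AP-2 factor of early epidermis, had 71.4 ± 3.51 CPM under CC-885 and 29.4 ± 4.68 CPM under DMSO (1.28, edgeR, adjusted p = 3.16e-05). KLF4, the most abundant of the list, was higher too (0.80, edgeR, adjusted p = 0.0209), though not once CC-885 replicate 2 was left out (adjusted p = 0.054). TP63, the master factor of stratified epithelium, was low and not called, at 1.93 ± 0.29 CPM under CC-885 and 2.42 ± 0.187 CPM under DMSO (edgeR, adjusted p = 0.252), and is named here after its value was seen.

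Of 8 tested factors of the hair follicle 1 was higher and 2 lower (median log2 fold change -0.16), against 25.8% and 26.8% of all tested genes. With 1 library left out at a time, 1 to 2 were higher and 2 to 3 lower. FOXN1, which in mice is needed for hair keratin expression, had 1.90 ± 0.196 CPM under CC-885 and 13.4 ± 3.90 CPM under DMSO (-2.81, edgeR, adjusted p = 4.43e-06). DLX3, a homeobox factor of hair differentiation, had 3.67 ± 0.264 CPM under CC-885 and 16.0 ± 2.84 CPM under DMSO (-2.13, edgeR, adjusted p = 4.44e-06). MSX1, another homeobox factor, was higher (0.53, edgeR, adjusted p = 0.00898), and CUX1 was not called (0.0056, edgeR, adjusted p = 0.979).

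Of 15 intermediate filament genes other than keratins 10 were tested, of which 0 rose and 5 fell (median log2 fold change -0.43). The share called in either direction is near the 52.6% of all tested genes, but all 5 calls were lower. Over all tested genes 25.8% were higher and 26.8% lower. With 1 library left out at a time, 3 to 6 of the list were lower and 0 higher. VIM, the vimentin of mesenchymal and many cultured cells, had 678 ± 22.9 CPM under CC-885 and 1112 ± 316 CPM under DMSO (-0.71, edgeR, adjusted p = 0.0123). Its DMSO replicates 1, 2 and 3 stood at 1295, 748 and 1294 CPM, so replicate 2 lay apart. The call was lost when DMSO replicate 1 was left out (edgeR, adjusted p = 0.0544). PRPH, a neuronal filament protein, had 0.418 ± 0.0408 CPM under CC-885 and 1.62 ± 0.0867 CPM under DMSO (-1.94, edgeR, adjusted p = 0.000258).

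Among genes of the desmosomes, the junctions that hold keratin filaments, 9 of 14 were tested, 2 were higher and 2 lower (median log2 fold change 0.09), near the 25.8% and 26.8% over all tested genes. PKP4 (0.80, edgeR, adjusted p = 0.000969) and PKP2 (0.63, edgeR, adjusted p = 0.00625), plakophilin family members, were higher. PERP (-0.72, edgeR, adjusted p = 0.00149), a membrane protein of desmosomes, and the plakophilin PKP3 (-0.64, edgeR, adjusted p = 0.00215) were lower. JUP, plakoglobin, was the most abundant and not called (-0.26, edgeR, adjusted p = 0.26). Among 10 hemidesmosome and plakin genes 2 were higher and 2 lower (median -0.17), also near those shares.

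The linker genes DST (0.52, edgeR, adjusted p = 0.00974) and EPPK1 (0.47, edgeR, adjusted p = 0.0144) were higher. COL17A1, a collagen of hemidesmosomes, was lower (-1.04, edgeR, adjusted p = 0.00638), as was the integrin gene ITGA6 (-0.48, edgeR, adjusted p = 0.0333). PLEC, plectin, was not called (-0.33, edgeR, adjusted p = 0.134). EPPK1 missed the threshold once CC-885 replicate 1 (adjusted p = 0.0544) or 2 (0.0696) was dropped. ITGA6 did so for 4 libraries (0.155 for CC-885 replicate 2, 0.0943 for CC-885 replicate 3, 0.137 for DMSO replicate 1 and 0.082 for DMSO replicate 2).

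Of 10 keratin-binding proteins 5 were higher and 2 lower (median log2 fold change 0.28), against 25.8% and 26.8% of all tested genes. With 1 library left out at a time, 2 to 5 were higher and 1 to 2 lower, so the number called higher depends on single libraries. The chaperone DNAJB6, which binds KRT18, was higher (0.78, edgeR, adjusted p = 0.00133), as was PNN (0.54, edgeR, adjusted p = 0.0119). SFN, stratifin, was lower at 182 ± 8.46 CPM under CC-885 and 314 ± 47.3 CPM under DMSO (-0.78, edgeR, adjusted p = 0.000991). TRADD, a TNF receptor adaptor that binds KRT18, was lower (-0.53, edgeR, adjusted p = 0.0175), and HSPB1, a small heat shock protein, was not called (-0.34, edgeR, adjusted p = 0.101). PNN missed the threshold when CC-885 replicate 3 (adjusted p = 0.0591) or DMSO replicate 1 (0.0564) was dropped. TRADD did so for CC-885 replicate 3 (0.0786) and for DMSO replicates 1 (0.0533) and 2 (0.0567).

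Cornified envelope genes, which follow keratins in the outer epidermis, were scarce. Of 19 genes 7 had no count and 5 were tested, of which 0 were higher and 2 lower (median log2 fold change -0.68), against 52.6% called over all tested genes. CNFN (-2.08, edgeR, adjusted p = 0.000142) and FLG, filaggrin (-2.12, edgeR, adjusted p = 0.00232), were lower, while TGM1, the most abundant, was not called (-0.09, edgeR, adjusted p = 0.7). FLG had 4, 6 and 5 counts under CC-885 and 33, 21 and 16 under DMSO. It reached the filter through DMSO alone, so its call follows in part from the filter. The summed level of the list was 8.95 to 12.1 CPM under CC-885 and 14.0 to 15.5 CPM under DMSO. FLG, ITGA6, PKP4, PNN, PRPH, TRADD and VIM overlap exons of a gene on the opposite strand, which makes their counts less certain.

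**Figure D5:**
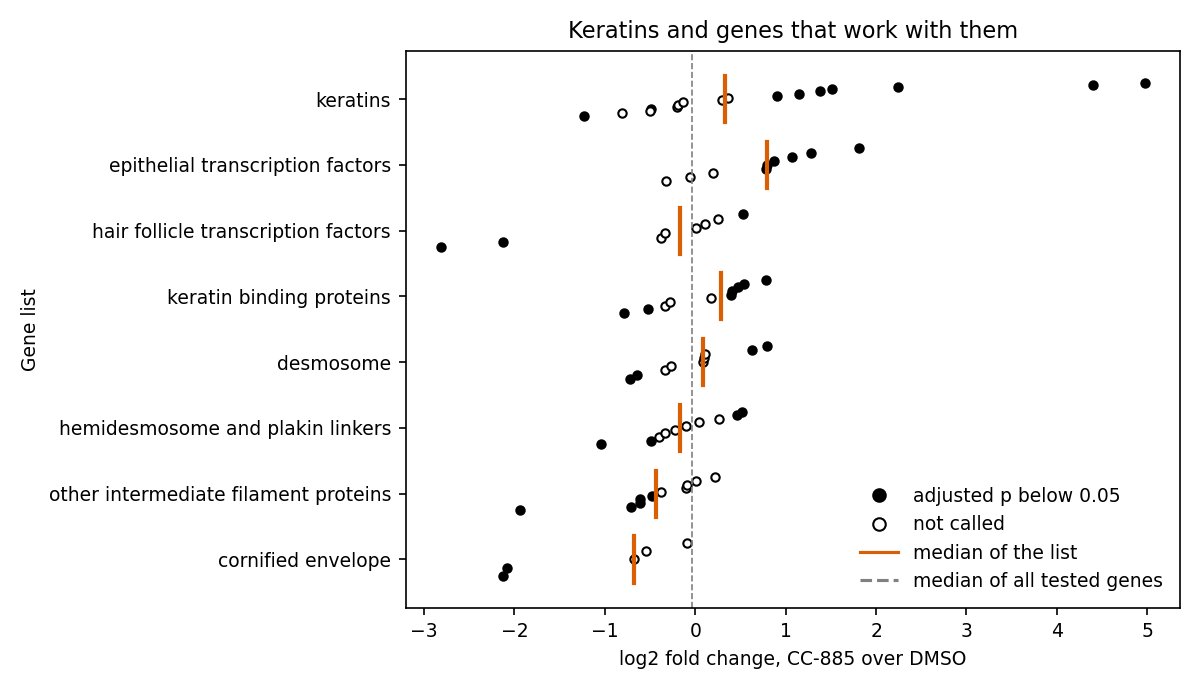
Log2 fold change of CC-885 over DMSO for each tested gene of the keratins and of 7 related lists, filled where the adjusted p was below 0.05, with the list median in orange and the median of all tested genes as a dashed line. Epithelial transcription factors have a median of 0.80 and cornified envelope genes of -0.68.

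Markers of other cell types were read beside these changes, and their part in them was not tested. Their counts of called genes stand beside 25.8% higher and 26.8% lower over all tested genes. Of 8 stratified epithelium markers 6 were tested, 0 were higher and 3 lower (median log2 fold change -0.43), with a summed level of 479.5 to 521 CPM under CC-885 and 593 to 901 CPM under DMSO. Of these 8 markers 6 also stand in a list above. TRIM29 was the most abundant of them (-0.55, edgeR, adjusted p = 0.0249), with a call lost in 5 of the 6 fits that left out a library. Of 8 biliary markers 7 were tested and 0 were called (median -0.08, summed level 103 to 123 CPM under CC-885 and 126 to 149 CPM under DMSO), and SOX4 was the most abundant (-0.08, edgeR, adjusted p = 0.594). The biliary sums depend in part on CLDN4, named after its values were seen, which varied widely within both groups. It had 12.8, 0.676 and 9.21 CPM under CC-885 and 34.2, 28.1 and 1.26 CPM under DMSO. Of 7 fibroblast markers 4 were tested, 1 was higher and 3 lower. COL1A1 (0.58, edgeR, adjusted p = 0.00327) was higher, PDGFRB (-2.33, edgeR, adjusted p = 8.63e-07) and DCN (-3.23, edgeR, adjusted p = 8.21e-05) were lower, and COL1A2 had 2 counts in 1 library. DCN had 4, 5 and 4 counts under CC-885 and 55, 49 and 28 under DMSO, and reached the filter through DMSO alone. THY1, another of the 3 and named after its values were seen, did so too. The calls of DCN and THY1 thus follow in part from the filter. The fibroblast sum was 152 to 185 CPM under CC-885 and 158 to 188 CPM under DMSO. Of 7 blood and endothelial markers 4 were tested and 2 were higher, at a summed level of 6.89 to 8.43 CPM under CC-885 and 3.73 to 4.73 CPM under DMSO, and PTPRC and CD3E had no count. The 2 were CDH5 (3.63, edgeR, adjusted p = 9.9e-06) and VWF (1.01, edgeR, adjusted p = 0.0232), and CD68, the most abundant, was not called (-0.09, edgeR, adjusted p = 0.756). CDH5 had 69, 90 and 58 counts under CC-885 and 6, 6 and 6 under DMSO. It reached the filter through CC-885 alone, so its call follows in part from the filter. VWF missed the threshold when CC-885 replicate 1 (adjusted p = 0.116) or DMSO replicate 1 (0.0508) or 2 (0.0762) was dropped.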

How the data were processed

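RNA sequencing libraries of HCCLM3 cells were made from total RNA with an mRNA library kit, per the labels' protocols. The authors deposited raw counts, whole numbers for each gene, as the values show. The aligner, counter and strand setting were not given in the sources used here. GRCm38 and mm10, which are mouse builds, stand in the submitters' processing notes, but the identifiers are human Ensembl genes, so GENCODE 29 serves only for names, lengths, chromosomes and overlaps. Symbols came from a table of gene names (20148 rows) or GENCODE 29 (76 rows), and 39 rows stayed unnamed. Low counts were mostly even, so a fragment may have been counted more than once.

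Counts were fitted with edgeR 4.0.16 under R 4.3.3, using TMM factors, filterByExpr with a minimum count of 10, robust quasi-likelihood F test of CC-885 over DMSO without a covariate, and Benjamini-Hochberg adjustment over 13444 genes. Standard errors are approximate, the size of the log2 fold change divided by the root of F. CPM are TMM-normalised. The naming rule took every keratin, and of each related list up to 2 higher and 2 lower genes with the smallest p and the most abundant gene. Members and lists were chosen with earlier results of these data known, and lists were described by counts without a set test. Alternatives were DESeq2 1.42.0 (size factors, Wald test), library size only, limma-voom (limma 3.58.1), other filters, a replicate block, halved counts and each library left out. Lengths of all annotated exons were added after seeing the data.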

Additional observations from a re-analysis of the deposited data

How the results depend on the processing

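The 7 keratins called higher and the 2 called lower were set against each alternative. Without the filter on low counts 7 were higher and 3 lower, the third being KRT39 (adjusted p = 0.0494). With a CPM of at least 5 in 3 libraries 8 keratins were tested, of which 4 were higher and 1 lower. The DESeq2 test called 7 higher and 1 lower, and halved counts 7 higher and 1 lower, since KRT12 and KRT14 were then not tested. Leaving out 1 library at a time gave 7 to 7 higher and 0 to 3 lower keratins, and 2897 to 3650 higher and 2908 to 3720 lower genes in all. Without CC-885 replicate 3 the 7 held KRT10 (edgeR, adjusted p = 0.0308) in place of KRT9 (edgeR, adjusted p = 0.0501). No tested keratin changed direction under any of these alternatives. The replicate numbers share only a label: same-numbered libraries correlated by 0.0958, 0.0312 and 0.0722 in their deviations from the group means, and 2 of 3 CC-885 libraries correlated best with their own number. With the replicate block 7 keratins were higher and 2 lower, and 3597 genes higher and 3676 lower. Genes near 0 changed sign: CUX1 gave -0.049 with library size only, -0.060 with the CPM filter and -0.0060 with halved counts, and over the fits that left out a library it gave -0.13 to 0.15, CD68 -0.25 to 0.016 and TGM1 -0.21 to 0.064. HSPB1 (with library size only), and JUP, PLEC and HSPB1 (without DMSO replicate 2) passed as lower. The cause was not tested. Depth limits KRT12, KRT14 and KRT33B, with fewer than 40 counts in each library.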
